A study of Homo sapiens with 4 samples.

Results

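BT-16 and CHLA-266 are established cell lines from atypical teratoid/rhabdoid tumors (AT/RT), and both represent the AT/RT-MYC subtype. The genes that differ between these cell lines in both conditions of the study are described here. RNA was sequenced from untreated cells of each cell line and from cells of each cell line that had regrown after 1 µM doxorubicin, 5 µM etoposide, and 1 µM vincristine, given on 3 consecutive days. There was 1 library per cell line and condition, so that 2 BT-16 libraries were compared with 2 CHLA-266 libraries, and all 4 libraries carry the label of 1 batch. All genes with at least 10 counts in 2 or more libraries entered the comparison, which were 16011 of the 18449 gene symbols in the table. Each cell line stands for 1 tumor, and cultures were not repeated, so the p values measure no spread between cultures. They rest on how far the gap between the cell lines differed between the conditions, with spread borrowed across genes.

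AT/RT are embryonal brain tumors of early childhood that arise after loss of SMARCB1 or, rarely, SMARCA4, which are subunits of the SWI/SNF chromatin remodeling complex. AT/RT-MYC is the subtype named for high expression of the transcription factor MYC. Tumors of this kind have few other mutations and can carry neural, epithelial, and mesenchymal features side by side, which makes genes of these lineages of interest in a comparison of cell lines.

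Library totals were 75087193 (untreated) and 51489712 (treated) counts for BT-16, as against 66192504 and 49849257 for CHLA-266. The libraries of the cell lines resembled each other more than the libraries of the conditions did. Among the 6409 genes that had 1000 or more counts in each of the libraries, the log2 ratio of BT-16 to CHLA-266 had a standard deviation of 0.292 between the untreated and of 0.307 between the treated libraries. The log2 ratio of treated to untreated cells had a standard deviation of 0.686 within BT-16 and of 0.738 within CHLA-266. A difference of more than 2-fold was found for 51 of these genes between the untreated cell lines and for 67 between the treated cell lines, and 13 genes exceeded it in both. The deposited tables hold counts and no genotypes, and whether the libraries come from distinct cell lines was not tested.

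None of the genes that define AT/RT was called between the cell lines. Counts are given throughout for untreated cells first and for treated cells second. SMARCB1 had 1394 and 981 counts in BT-16 as against 1313 and 827 in CHLA-266 (log2 fold change 0.01 ± 0.19 SE, adjusted p = 0.999). Some SMARCB1 transcript was thus counted in every library. SMARCA4, the ATPase of the same complex, had 59447 and 29429 counts in BT-16 as against 55651 and 35718 in CHLA-266. These counts were not scaled to the length of the transcripts expressed, so they do not give the level of SMARCB1 relative to SMARCA4. MYC had 14275 and 6804 counts in BT-16 as against 11515 and 7505 in CHLA-266 (log2 fold change -0.08 ± 0.14 SE, adjusted p = 0.95). MYC was thus ahead in BT-16 among the untreated libraries and in CHLA-266 among the treated libraries. MYCN, its neuronal relative, had 0 counts in both untreated libraries, and 58 (BT-16) and 8 (CHLA-266) after treatment, and it was not tested. The cell cycle inhibitor gene CDKN2A (log2 fold change 0.27 ± 0.17 SE, adjusted p = 0.657) was not called either. Summed over each list, markers of macrophages, fibroblasts, endothelial cells, T cells, astrocytes, and melanocytes did not exceed 18.4 CPM (counts scaled to a common library size) in any library, and none was called. Fibroblast markers summed to 8.19 and 18.4 CPM in BT-16 and to 3.74 and 7.64 CPM in CHLA-266 cells, in the order untreated and treated.

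With treatment status as a block, the quasi-likelihood test of edgeR called 174 genes at an adjusted p value under 0.05, which is 1.09% of the genes tested. Expression was higher in BT-16 for 112 genes (0.7%) and higher in CHLA-266 for 62 genes (0.387%). In the same model, treatment was called for 7276 genes (45.4%). The count of 174 rests on the way in which the spread is estimated. The bias-adjusted form of the same test, chosen after seeing the data, called 6 genes, namely NOS1, SOSTDC1, DPPA2, NEFH, and STRA6 as higher in BT-16 and GRM8 as higher in CHLA-266, and a model without the block called 0 genes (92 at an unadjusted p value under 0.05). All 174 genes had the same direction in the untreated and in the treated pair, a condition that the test over both pairs favors, as against 57.7% of all genes tested. The absolute log2 fold change was at least 1 for 117 called genes (75 higher in BT-16 and 42 higher in CHLA-266) and at least 3 for 21 called genes (18 and 3).

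**Figure D1:**
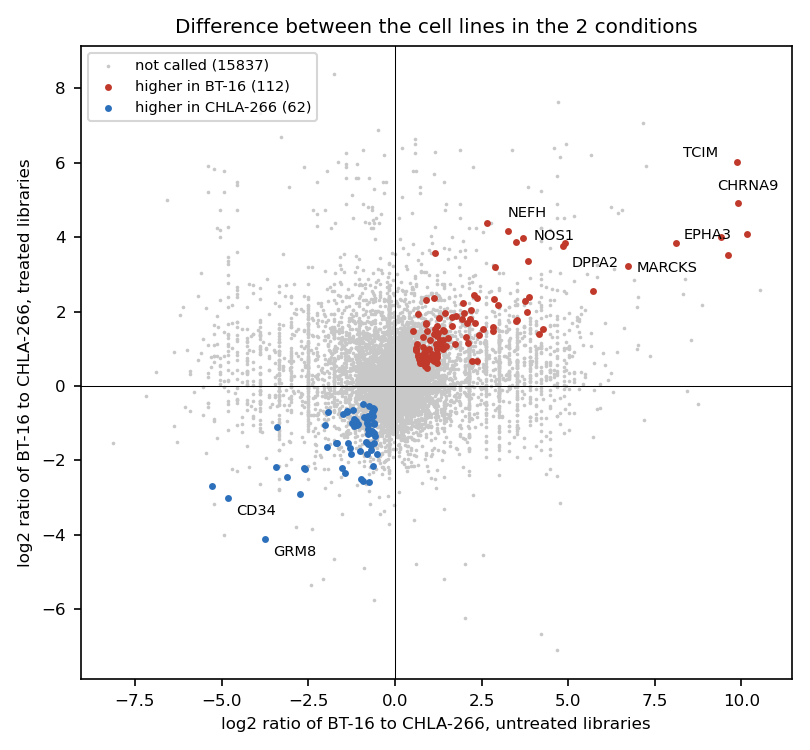
Log2 ratio of BT-16 to CHLA-266 in the untreated libraries (x axis) and in the treated libraries (y axis), with 0.5 counts added, for 16011 genes, 1 point per gene. Red points mark the 112 genes called higher in BT-16 and blue points the 62 genes called higher in CHLA-266, and all lie in the quadrants where both ratios have the same sign; the vertical stripes are genes with very low counts in the untreated libraries.

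The sequences just before the transcription start of 6 genes with large differences between the cell lines are shown, as these genes moved in the same direction in both conditions. They are the 250 bases upstream of the first start listed in RefSeq (GRCh38.p14), read 5′ to 3′ on the strand of the gene, with CpG dinucleotides in capitals. For NOS1, this start lies 143 kb inside the gene as drawn in GENCODE 44, whereas for the other genes shown it lies within 0.277 kb of the outer end. The windows lie at chr12:117309411-117309660 (minus strand), chr3:109316518-109316767 (minus strand), chr15:74212260-74212509 (minus strand), chr7:127252942-127253191 (minus strand), chr22:32801455-32801704 (plus strand), and chr1:207911126-207911375 (minus strand). NOS1, DPPA2, and STRA6 were higher in BT-16, and GRM8, TIMP3, and CD34 were higher in CHLA-266.
NOS1: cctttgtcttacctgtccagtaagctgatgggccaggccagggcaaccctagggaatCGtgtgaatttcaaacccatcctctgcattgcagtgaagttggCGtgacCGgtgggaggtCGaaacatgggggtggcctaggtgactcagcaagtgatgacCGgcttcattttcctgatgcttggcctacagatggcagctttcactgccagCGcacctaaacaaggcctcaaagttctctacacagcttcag
DPPA2: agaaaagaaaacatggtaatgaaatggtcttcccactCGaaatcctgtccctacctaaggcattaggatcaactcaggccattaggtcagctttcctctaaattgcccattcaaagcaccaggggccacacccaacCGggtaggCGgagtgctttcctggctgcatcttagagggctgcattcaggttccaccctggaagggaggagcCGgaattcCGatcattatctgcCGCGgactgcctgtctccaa
STRA6: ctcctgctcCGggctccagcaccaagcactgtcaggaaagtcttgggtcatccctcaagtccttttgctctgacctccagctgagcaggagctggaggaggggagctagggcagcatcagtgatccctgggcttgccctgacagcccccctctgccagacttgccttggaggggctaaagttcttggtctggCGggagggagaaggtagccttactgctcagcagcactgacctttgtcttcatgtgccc
GRM8: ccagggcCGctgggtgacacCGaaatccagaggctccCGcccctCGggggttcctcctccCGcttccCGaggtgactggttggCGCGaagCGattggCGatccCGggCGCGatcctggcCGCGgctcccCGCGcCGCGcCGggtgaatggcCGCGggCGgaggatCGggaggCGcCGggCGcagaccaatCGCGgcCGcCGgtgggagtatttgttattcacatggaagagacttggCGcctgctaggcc
TIMP3: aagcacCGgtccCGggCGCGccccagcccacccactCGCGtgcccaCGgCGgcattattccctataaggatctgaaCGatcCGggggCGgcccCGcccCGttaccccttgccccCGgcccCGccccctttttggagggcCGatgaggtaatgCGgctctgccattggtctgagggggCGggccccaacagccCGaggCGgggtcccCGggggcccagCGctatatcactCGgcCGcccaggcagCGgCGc
CD34: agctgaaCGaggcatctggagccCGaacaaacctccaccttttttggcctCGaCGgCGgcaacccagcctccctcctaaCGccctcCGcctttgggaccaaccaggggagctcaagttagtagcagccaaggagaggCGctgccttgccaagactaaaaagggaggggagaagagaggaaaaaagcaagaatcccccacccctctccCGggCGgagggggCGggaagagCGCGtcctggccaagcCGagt
The windows of NOS1, DPPA2, and STRA6 hold 6, 7, and 2 CpG dinucleotides, and those of GRM8, TIMP3, and CD34 hold 32, 26, and 14. These 6 windows are a selection, and their contrast does not extend to the other leading genes. PLA2G4A, SEL1L3, INA, TUBB2B, and IGFBP2, higher in BT-16, hold 2, 13, 30, 28, and 7. UACA, KCNMA1, NCAM2, DENND5B, and GCNT2, higher in CHLA-266, hold 21, 46, 14, 40, and 3. The median number of CpG dinucleotides was 20 for 85 genes higher in BT-16, 22 for 47 genes higher in CHLA-266, and 19 for all 12814 tested genes with a RefSeq promoter. The E-box CACGTG, the palindrome that MYC and related factors bind, was found in 8.24% of the promoters of genes higher in BT-16, in 4.26% of those higher in CHLA-266, and in 8.16% of all promoters. The sequence TATAAA was found on either strand in 10.6%, 6.38%, and 7.09%, respectively.

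NOS1, which encodes the neuronal nitric oxide synthase, had the smallest adjusted p value. It reached 1380 and 5409 counts in BT-16 but 93 and 313 in CHLA-266, which corresponds to a 14.4-fold higher expression in BT-16 (log2 fold change 3.85 ± 0.20 SE, adjusted p = 4.29e-06). NOS1 had log2 ratios of treated to untreated cells of 2.27 (BT-16) and 2.01 (CHLA-266), and the lowest BT-16 library was above the highest CHLA-266 library. As RNA came from bulk cultures, more cells with NOS1 and more NOS1 per cell cannot be told apart, which holds for every gene described. SOSTDC1, a secreted antagonist of BMP and Wnt signaling, was the most abundant of the 12 leading genes higher in BT-16, with 24423 and 25201 counts in BT-16 as against 4179 and 4468 in CHLA-266 (log2 fold change 2.36 ± 0.14 SE, adjusted p = 9.31e-06). Its ratio was nearly the same in both conditions, with log2 ratios of 2.37 in the untreated and 2.35 in the treated pair.

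Some genes of neuronal intermediate filaments were higher in BT-16. NEFH, the heavy neurofilament chain, had 3617 and 2614 counts in BT-16 as against 332 and 132 in CHLA-266 (13.0-fold, log2 fold change 3.70 ± 0.24 SE, adjusted p = 1.55e-05). INA, the neuronal intermediate filament protein alpha-internexin, had 625 and 4442 counts in BT-16 as against 141 and 865 in CHLA-266 (log2 fold change 2.10 ± 0.19 SE, adjusted p = 0.000256). The treated CHLA-266 library thus exceeded the untreated BT-16 library for INA, while BT-16 was higher within each condition. PRPH, which encodes the neuronal filament protein peripherin and was chosen after its values were seen, had 26493 and 28497 counts in BT-16 as against 10328 and 16147 in CHLA-266 (log2 fold change 0.93 ± 0.15 SE, adjusted p = 0.0113). TUBB2B, a beta-tubulin of developing neurons, was 8.7-fold higher in BT-16, with 5981 and 3477 as against 361 and 602 counts. Of 21 neural genes tested, NEFH and INA were called (9.52%, as against 1.09% of all genes). The median log2 ratio of the neural list was 0.02 in the untreated and -0.02 in the treated pair.

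Some germline and pluripotency genes were also higher in BT-16. The neighboring genes DPPA2 and DPPA4 encode chromatin proteins of early embryonic and germ cells. DPPA2 had 2965 and 3270 counts in BT-16 as against 90 and 220 in CHLA-266 (19.4-fold, log2 fold change 4.28 ± 0.27 SE, adjusted p = 1.55e-05). DPPA4 had 652 and 462 counts in BT-16 but 0 and 24 in CHLA-266 (log2 fold change 5.67 ± 0.87 SE, adjusted p = 0.00798). IGF2BP3, an oncofetal RNA-binding protein, had 565 and 1163 counts in BT-16 as against 117 and 326 in CHLA-266 (log2 fold change 1.89 ± 0.27 SE, adjusted p = 0.0053). These were the 3 called members among 31 tested cancer-testis and germline genes (9.68%), and all 3 were higher in BT-16, as were 0.7% of all genes. IGFBP2, a secreted binding protein of insulin-like growth factors, was 5.99-fold higher in BT-16, with 3427 and 980 counts as against 384 and 198 counts. IGFBP2 and IGF2BP3 were the called members of the 14 tested genes of the IGF axis (14.3%, as against 1.09% of all genes), and IGF2BP3 is in both lists. The median log2 fold change of the IGF axis was 0.009, as against 0.02 for all genes tested.

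Further genes that were higher in BT-16 concern retinoid uptake, lipid signaling, and the cytoskeleton. STRA6, the receptor for retinol-binding protein, had 2416 and 1672 counts in BT-16 as against 288 and 166 in CHLA-266 (8.21-fold, adjusted p = 3.54e-05). PLA2G4A, the cytosolic phospholipase A2 that releases arachidonic acid, had 1171 and 798 as against 34 and 50 counts (20.7-fold, adjusted p = 0.00013). For both genes, the BT-16 libraries did not overlap with the CHLA-266 libraries. DLC1 was 8.04-fold higher in BT-16 and SEL1L3 was 3.98-fold higher. MARCKS, an actin-binding substrate of protein kinase C that was chosen after its values were seen, had 14277 and 4706 counts in BT-16 but 118 and 452 in CHLA-266 (log2 fold change 4.87 ± 0.62 SE, adjusted p = 0.00256).

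Only 1 gene was detected in 1 cell line alone, taken as at most 3 counts in both libraries of the other cell line and at least 100 counts in each of its own. TCIM, a positive regulator of Wnt signaling, had 526 and 180 counts in BT-16 as against 0 and 2 in CHLA-266. Measured against a floor of 3 counts per library, TCIM was at least 155-fold higher in BT-16 in the untreated pair and at least 54.4-fold higher in the treated pair (adjusted p = 0.00142). No gene met this definition in CHLA-266. CHRNA9, a subunit of the nicotinic acetylcholine receptor, had 538 and 685 counts in BT-16 as against 0 and 20 in CHLA-266, and the ephrin receptor gene EPHA3 had 774 and 739 as against 2 and 46 counts. CHRNA9, EPHA3, and DPPA4 shared the feature that CHLA-266 cells had at most 2 counts when untreated and 20 to 46 counts after treatment. Counts near 0 in untreated and above 0 in treated cells were frequent in general, as 17114 genes had a count in treated as against 15464 in untreated CHLA-266 cells.

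**Figure D2:**
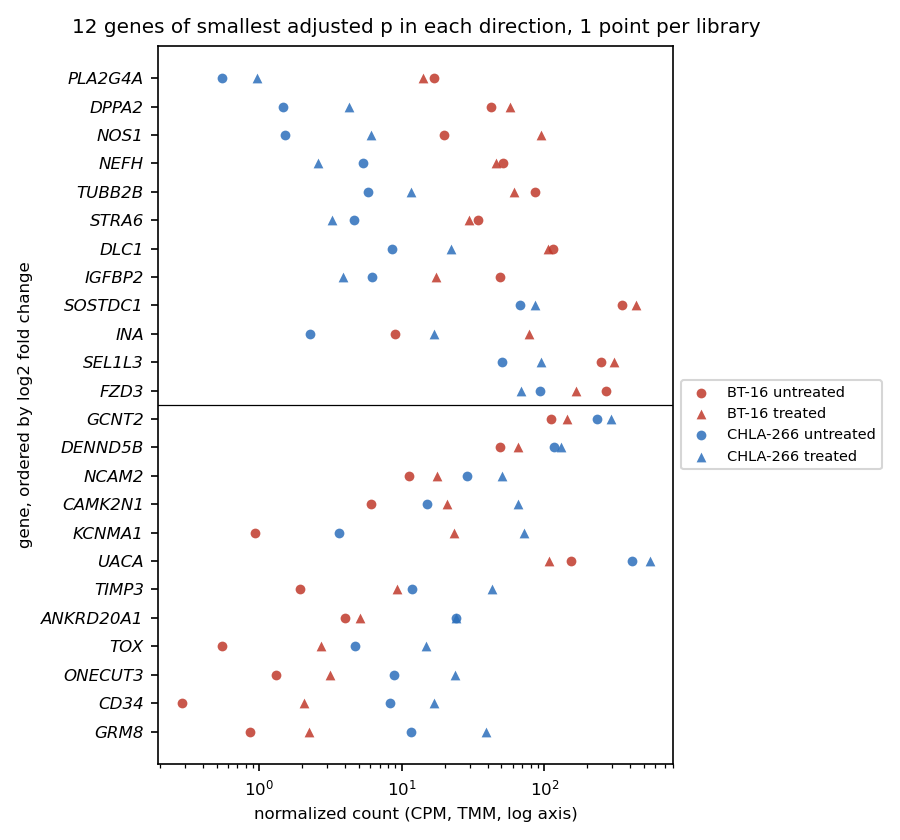
Normalized counts (CPM, scaled by TMM, log axis) in each of the 4 libraries for the 12 leading genes of each direction, ranked by adjusted p value; the line separates genes higher in BT-16 (above) from genes higher in CHLA-266 (below), red stands for BT-16 and blue for CHLA-266, circles for untreated and triangles for treated cells. In each row, both circles and both triangles are ordered alike, while for INA, CAMK2N1, and KCNMA1 the shift between conditions exceeds the gap between the cell lines.

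In CHLA-266 cells, GRM8, a metabotropic glutamate receptor, led the genes of higher expression. It had 717 and 2000 counts in CHLA-266 as against 60 and 127 in BT-16, a 15.4-fold difference (log2 fold change -3.95 ± 0.26 SE, adjusted p = 1.55e-05). CD34, a surface sialomucin of hematopoietic progenitors and endothelial cells, had 509 and 865 counts in CHLA-266 as against 20 and 117 in BT-16 (14.2-fold, log2 fold change -3.82 ± 0.44 SE, adjusted p = 0.00124). The 5 endothelial markers of the list, which does not hold CD34, summed to 1.23 and 8.26 CPM in untreated and treated CHLA-266 cells and to 2.11 and 11.9 CPM in BT-16 cells, and none of them was called. TIMP3, an inhibitor of matrix metalloproteinases, had 11.8 and 42.7 CPM in CHLA-266 as against 1.91 and 9.17 CPM in BT-16 (5.32-fold, adjusted p = 0.000296).

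Other leading genes of CHLA-266 had smaller fold differences than GRM8 and CD34. ONECUT3, a homeodomain transcription factor, was 7.13-fold higher in CHLA-266, with 541 and 1212 as against 91 and 177 counts. TOX, an HMG box protein known from T cell development, was 6.77-fold higher, with 292 and 761 as against 38 and 154 counts. NCAM2, a neural cell adhesion molecule, had 1766 and 2605 counts in CHLA-266 as against 787 and 1000 in BT-16 (2.7-fold, adjusted p = 0.00223). KCNMA1, the pore-forming subunit of the calcium-activated BK potassium channel, had 225 and 3702 as against 65 and 1320 counts with larger differences between conditions than between cell lines. CAMK2N1, an inhibitor of CaM kinase II, showed a similar course with 925 and 3373 as against 424 and 1172 counts. UACA was the most abundant of these genes and had 25534 and 28401 counts in CHLA-266 as against 10693 and 6168 in BT-16 (3.7-fold). DENND5B and GCNT2, a glycosyltransferase, were 2.18-fold and 2.07-fold higher with similar ratios in both conditions. ANKRD20A1 was 5.34-fold higher in CHLA-266, but this gene has near-identical copies to which reads can be assigned, and its value is uncertain.

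The gap between the cell lines was not of the same size in both conditions for every gene. SERPINB2, an inhibitor of plasminogen activators, had 1462 and 2491 counts in BT-16 as against 574 and 189 in CHLA-266. Its log2 ratio of BT-16 to CHLA-266 was 1.17 in the untreated and 3.58 in the treated pair. With 1 library per cell line and condition, a difference in the gap could not be tested. The gap was larger in the untreated pair for 70 of the 112 genes higher in BT-16 and for 26 of the 62 genes higher in CHLA-266. The same share over all genes tested was not worked out. Over all genes tested, the log2 ratio of BT-16 to CHLA-266 had a standard deviation of 1.279 in the untreated and of 0.8846 in the treated pair.

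Of 47 gene lists, 21 had at least 1 called member, and 42 of 2109 tested members were called (1.99%, as against 1.09% of all genes). The lists were written with earlier results of these data known, so these shares are descriptive only. Epithelial genes had the largest share, with 5 of 23 (21.7%). Summed over the list, they had 747 and 1840 CPM in BT-16 as against 518 and 2290 CPM in CHLA-266. KRT8 and KRT18, the paired keratins of simple epithelia, had 19569 and 3759 counts in untreated and 42198 and 6634 counts in treated BT-16 cells. In CHLA-266 cells, they had 7895 and 1820 counts when untreated and 14514 and 3207 counts after treatment, so that both keratins were higher in BT-16 (log2 fold changes 1.27 ± 0.14 SE and 0.89 ± 0.14 SE). The mucin gene MUC1 (log2 fold change 1.45 ± 0.16 SE) and JUP, which encodes the junction protein plakoglobin (1.12 ± 0.15 SE), were higher in BT-16 too. Desmoplakin (DSP), the plaque protein that links keratins to desmosomes, was higher in CHLA-266, with 2588 and 82066 as against 1725 and 30625 counts (log2 fold change -1.17 ± 0.18 SE, adjusted p = 0.00798). DSP differed more between conditions than between cell lines. The median log2 fold change of the epithelial list was 0.46. None of 24 tested mesenchymal genes was called, and their median was 0.25.

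**Figure D3:**
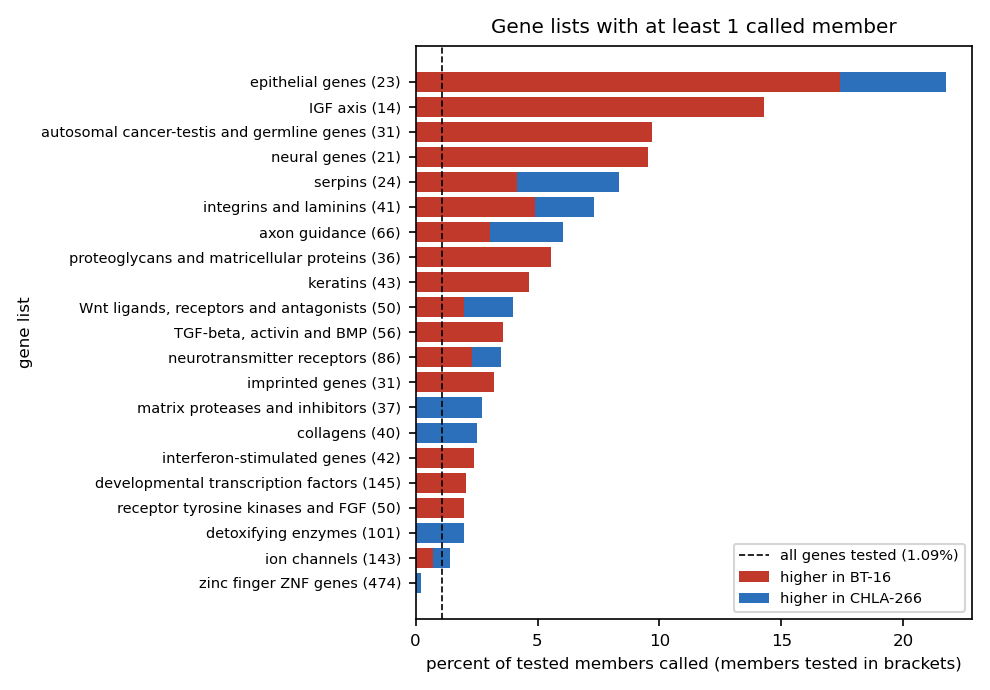
Percent of the tested members of each gene list that were called (x axis), for the 21 lists with at least 1 called member, with the number of tested members in brackets; red marks members higher in BT-16, blue marks members higher in CHLA-266, and the dashed line is the share of all genes tested (1.09%). The epithelial list reaches 21.7% through 5 of 23 genes, and most other bars stand for 1 to 3 genes.

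Genes of the extracellular matrix and of cell guidance were called in both directions. The laminin chain LAMA5 and the collagen receptor subunit ITGA2 were higher in BT-16 (log2 fold changes 1.06 ± 0.15 SE and 2.60 ± 0.55 SE), and LAMA2 was higher in CHLA-266 (-0.80 ± 0.14 SE), among 41 tested integrins and laminins. COL18A1 was the called member of 40 collagens and was higher in CHLA-266, with 5693 and 7811 as against 1693 and 5347 counts. The matricellular gene SPARCL1 (log2 fold change 1.60 ± 0.30 SE) and FBN1, the gene of fibrillin 1 (0.67 ± 0.13 SE), were higher in BT-16. Among 66 axon guidance genes, EPHA3 and the semaphorin coreceptor NRP1 (0.99 ± 0.15 SE) were higher in BT-16. The netrins NTN1 (-1.51 ± 0.28 SE) and NTN4 (-0.81 ± 0.14 SE) were higher in CHLA-266. NTN4 was abundant in all libraries, with 39133 and 55275 counts in CHLA-266 as against 28869 and 30293 in BT-16.

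Receptors and mediators of developmental signaling also differed in single members. The Wnt receptor FZD3 had 18932 and 9485 counts in BT-16 as against 5740 and 3527 in CHLA-266 (2.67-fold, adjusted p = 0.00039). FZD5, another Wnt receptor, was higher in CHLA-266, with 8892 and 14460 as against 5932 and 2655 counts (log2 fold change -1.67 ± 0.32 SE), and its log2 ratio was -0.76 in the untreated and -2.59 in the treated pair. SMAD3, a transducer of TGF-beta signals, had 2797 and 2802 counts in BT-16 as against 1074 and 1006 in CHLA-266 (2.41-fold, adjusted p = 0.00311). LTBP4, which binds latent TGF-beta (log2 fold change 0.70 ± 0.15 SE), and FGFR3 (1.00 ± 0.20 SE) were higher in BT-16. Of 145 developmental transcription factors, MEIS3, TBX1, and SOX13 were called (2.07%, as against 1.09% of all genes), all higher in BT-16. This list does not hold the homeodomain factor ONECUT3, which was higher in CHLA-266. None of the 22 tested HOX genes was called. PLAGL1, a zinc finger gene with imprinted expression, had 1666 and 1769 counts in BT-16 as against 372 and 412 in CHLA-266 (3.92-fold).

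Among 143 ion channels, KCNMA1 was higher in CHLA-266. Of 86 neurotransmitter receptors, CHRNA9 and the GABA receptor subunit GABRD (3.69-fold) were higher in BT-16 and GRM8 was higher in CHLA-266. The aldo-keto reductases AKR1C1 and AKR1C2, which reduce ketosteroids and carbonyl drugs, were the called members of 101 detoxifying enzymes and were higher in CHLA-266. AKR1C2 had 2333 and 24046 counts in CHLA-266 as against 1781 and 10502 in BT-16, and AKR1C1 had 4564 and 32651 as against 3362 and 20414 counts. Both had higher counts in the treated library of each cell line, and their sequences are so alike that reads may be exchanged between them. The interferon-induced gene IFITM3 was 1.68-fold higher in BT-16, and ZNF737 was the called member among 474 ZNF genes and was 2.09-fold higher in CHLA-266.

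No member was called in 26 lists. These included 28 SWI/SNF subunits, 12 genes of the MYC network, the markers of the AT/RT subtypes, 20 genes of the CDK inhibitor and RB pathway, 43 ABC transporters, 21 cadherins, 51 clustered protocadherins, 70 cytosolic ribosomal proteins, and 24 MHC genes. With 1.09% of all genes called, lists of such size can lack a call, so the absence of calls does not mean equal expression. The median log2 fold change was 0.54 for cadherins, 0.66 for HOX genes, and -0.13 for the MYC network, as against 0.02 for all genes tested. Proliferation genes summed to 9250 CPM in untreated BT-16 and 9790 CPM in untreated CHLA-266 cells and to 695 and 683 CPM after treatment, so that the sums lay far apart between conditions and close together between cell lines, with a median log2 fold change of 0.03 over 26 genes.

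Position in the genome was examined next, as gains and losses of chromosomes can separate tumor cell lines. For the well-expressed genes (1000 or more counts in each library), the median log2 ratio per autosome ranged from -0.134 to 0.113 in the untreated pair and from -0.168 to -0.0663 in the treated pair, against medians over all such genes of -0.0046 and -0.0917. No whole chromosome and none of 309 blocks of 20 neighboring well-expressed genes was shifted by more than 0.25 in the same direction in both pairs. The share of called genes ranged from 0.19% on chromosome 14 to 2.56% on chromosome 8. On chromosome 4, which was picked with its values in view, 12 of the 13 called genes were higher in BT-16, as were 64.4% of all called genes. All 6 called genes on chromosome 5 were higher in BT-16 as well. Over all tested genes of chromosome 4, the median log2 fold change was -0.0584, the lowest of the autosomes. Sex chromosomes were removed by the authors.

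**Figure D4:**
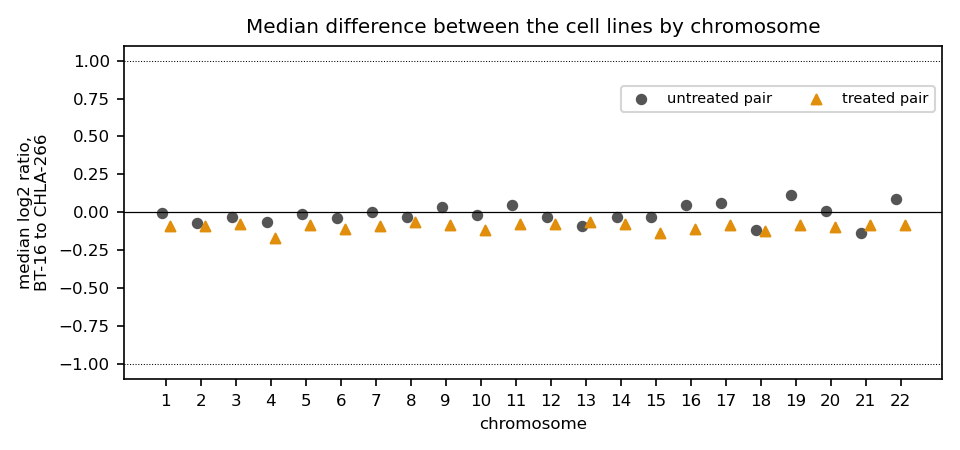
Median log2 ratio of BT-16 to CHLA-266 per autosome for the well-expressed genes, in the untreated pair (gray circles) and the treated pair (orange triangles); dotted lines mark a 2-fold difference. All medians lie between -0.168 and 0.113.

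At the scale of single neighbors, called genes stood beside each other in 13 pairs of adjacent tested genes, and the members of all 13 pairs had the same direction. These pairs hold 24 genes of the 174 called genes (13.8%). The corresponding figures for all adjacent tested genes were not worked out, and a shared cause was not tested. One of the pairs is AKR1C1 and AKR1C2, between which reads may be exchanged. The pairs named here were picked with their values in view. PTPRK, LAMA2, and ARHGAP18 on chromosome 6 (chr6:127968785-129710177, hg38) were all higher in CHLA-266, with log2 fold changes of -0.93, -0.80, and -0.93. FBXO16, FZD3, and EXTL3 on chromosome 8 (chr8:28348287-28756561) were all higher in BT-16, with log2 fold changes of 1.34, 1.42, and 0.69. DPPA2 and DPPA4 on chromosome 3 (chr3:109293788-109337546) and KRT8 and KRT18 on chromosome 12 (chr12:52897187-52952906) were higher in BT-16. SLC9A9 and DIPK2A on chromosome 3 (chr3:143265222-144048719) were higher in CHLA-266, with log2 fold changes of -1.74 and -1.76. KRT8 and KRT18 overlap on opposite strands, as do TIFA and ALPK1. SOSTDC1, STRA6, SEL1L3, INA, TUBB2B, DLC1, TIMP3, TBX1, COL18A1, LAMA5, IGF2BP3, and SMARCB1 each overlap a gene on the other strand in GENCODE 44, and whether strand was used in counting is not given in the sources used here.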

How the data were processed

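RNA was isolated from 4 cultures, namely untreated and treated BT-16 and CHLA-266 cells, and paired-end libraries were made from 10 ng RNA with a stranded SMART-Seq kit. According to the methods, the authors trimmed reads with Skewer, mapped them with STAR to hg38, counted them per gene, and removed repeatedly counted genes and genes on the sex chromosomes. Per the labels, reads were demultiplexed with bcl2fastq 2.20. The deposited table holds estimated counts per gene symbol without normalization, and 5 fractional values in 2 genes were rounded to integers. The log2 table deposited by the authors holds variance-stabilized counts (VST) and were used for 1 alternative only.

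Samples were grouped by the labels. Cell lines were compared with edgeR 4.0.16 (TMM, quasi-likelihood test with default settings, Benjamini-Hochberg adjustment over 16011 genes) in R 4.3.3, with treatment status as a block, which left 1 residual degree of freedom. The common dispersion was 0.0646 with 10.64 prior degrees of freedom. Untreated and treated libraries are not replicates of each other, and the residual holds the difference in response between the cell lines. An exact permutation test of 2 against 2 libraries cannot give a p value below 0.333. SE is the absolute log2 fold change divided by the square root of F. Log2 ratios within a pair used 0.5 added counts. Low counts were mostly even (20.5% to 34.2% of counts from 1 to 20 were odd), so that both reads of a pair may have been counted. Alternatives were DESeq2 1.42.0, limma 3.58.1 on VST values, other normalizations and filters, halved counts, and libraries left out. The scripts were tested on simulated data. Genes and lists were chosen with earlier results of these data known. Named genes are the 12 of smallest adjusted p value per direction with an absolute log2 fold change of at least 1, up to 8 genes per cell line detected in it alone, up to 4 called genes per list, and 6 AT/RT genes; others are marked as chosen after their values were seen. Promoters came from RefSeq and coordinates from GENCODE 44. A few genes that met this rule are not reported here.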

Additional observations from a re-analysis of the deposited data

Results flagged for a closer look

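The difference between the cell lines had opposite signs in the untreated and in the treated pair for SMARCB1, with a log2 ratio of BT-16 to CHLA-266 of -0.09 in untreated and 0.10 in treated cells, and for MYC, with 0.13 and -0.28. The same held for the medians of 7 chromosomes of well-expressed genes, defined by 1000 or more counts in each library (chromosomes 9, 11, 16, 17, 19, 20, and 22), and for the medians of 11 of 43 gene lists with at least 5 tested members. For the chromosomes, the treated pair carried an offset common to all of them, with a median over all well-expressed genes of -0.0917 as against -0.0046 in the untreated pair. Relative to these medians, 5 of the 7 chromosomes had the same sign in both pairs, and chromosomes 16 and 20 did not. Over all 22 autosomes, 11 had opposite signs relative to these medians, as against 7 before. Some values relative to these medians lay near 0, such as 0.0024 in the untreated and -0.0005 in the treated pair for chromosome 1. What underlies the disagreement in sign was not tested. Among the lists were keratins (-0.18 in the untreated and 0.63 in the treated pair), clustered protocadherins (0.38 and -0.54), and mitochondrially encoded genes (-0.57 and 0.21). With 1 library per cell line and condition, none of these differences was tested.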

How the results depend on the processing

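All 174 genes kept their direction in each alternative that used all 4 libraries and tested them, but the number called ranged widely. Without the treatment block, 0 genes were called (0 in each direction, 0 list members; 92 genes at an unadjusted p value under 0.05). The bias-adjusted quasi-likelihood test, added after seeing the data, called 6 genes (5 higher in BT-16, 1 higher in CHLA-266, 3 list members). More genes were called with upper-quartile normalization (511; 332 and 179; 100 list members), library totals (338; 240 and 98; 74 list members), all 18066 genes with a nonzero total (415; 264 and 151; 86 list members), halved counts (280; 175 and 105), and DESeq2 (290; 172 and 118). DESeq2 size factors in edgeR gave 245 genes, limma on VST values 190, the edgeR filter 161, and at least 10 counts in every library 130. DESeq2 shared 168 and limma 157 of the 174 genes. The default test of this edgeR version is the legacy form, so the planned legacy alternative was not run separately.

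With each library left out in turn and the cell line alone in the model, 0 to 40 genes were called (0 to 38 higher in BT-16, 0 to 2 higher in CHLA-266, 0 to 9 list members), and 40 were called without treated CHLA-266 cells. Genes detected in BT-16 alone numbered 3 at a limit of 10 counts (STEAP2, TCIM, IKBKE) and 4 at a minimum of 30 counts (ISL1, CYP39A1, JAKMIP2, TCIM), against 1 gene (SYT10) in CHLA-266. Leaving out a library turned the direction of 7 named genes, whose log2 fold changes ranged from -0.0892 to 4.25 (INA), -5.34 to 1.73 (KCNMA1), -5.05 to 2.75 (DSP), -3.85 to 0.66 (NTN1), -0.0635 to 1.62 (IFITM3), -3.30 to 1.48 (AKR1C2), and -2.88 to 1.46 (AKR1C1); these fits compare unequal numbers of treated libraries. Of the values for named genes, 727 kept their direction and their side of the threshold, 349 kept their direction only, and 8 turned. The labels give no replicate numbers, and the pairing of the libraries by treatment status is the block of the reported model.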
